A study of Arabidopsis thaliana with 6 samples.

Results

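The aliphatic glucosinolate synthesis genes are the Arabidopsis genes that build the methionine-derived glucosinolates, sulfur-rich defence compounds of the cabbage family. The 10 members were chosen by gene identifier, as a regulator pair and enzymes along the pathway, and 9 of them were found among the 18368 genes of the deposited table. These were *MYB28*, *MYB29*, *BCAT4*, *MAM1*, *MAM3*, *CYP79F1*, *CYP79F2*, *CYP83A1* and *FMO GS-OX1*. The tenth, *AOP2* on chromosome 4, is annotated in RefSeq as a transcribed pseudogene and was not analysed here. *AOP2* encodes a dioxygenase of side-chain modification and is known to be non-functional in Col-0.

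The question addressed was how the transcripts of these genes differ between seedlings before and after vernalization, the long cold period that prepares many plants to flower. RNA was sequenced from wild-type (WT) Col-0 seedlings grown on plates, with no mutant allele or transgene in either group. Non-vernalized seedlings (0v, 3 libraries) were grown for 11 days at 22 °C. Vernalized seedlings (4v, 3 libraries) had 7 days at 22 °C and then 28 days at 5 °C, which makes 4 weeks of cold. At harvest the 0v seedlings were thus 11 days old and the 4v seedlings 35 days old, so that age and cold cannot be told apart in this design. The replicates of each group came from separate plates.

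Glucosinolates of this class start from methionine, whose side chain is first lengthened by a cycle of deamination, condensation, isomerization and decarboxylation. The elongated amino acid is converted to an aldoxime and then to the thioglucoside core by cytochrome P450 enzymes and conjugating enzymes, and the side chain is finally oxidized or otherwise modified. The R2R3-MYB factors MYB28 and MYB29 are the main activators of this branch. When tissue is damaged, myrosinases stored in separate cells release toxic products from the glucosinolates.

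The 6 libraries held 1636687 to 23141488 reads counted over the 18368 genes used, which are not all the reads sequenced. Of these libraries 2, 0v replicate 3 and 4v replicate 2, were about an order of magnitude deeper than the other 4. Values are normalized counts, that is, reads divided by 1 size factor per library, so that 1 read was worth 2.84 to 3.41 in the 4 shallow libraries and at most 0.263 in the others. Replicate spread and not counting alone set the errors given below. The labels were checked with cold-induced genes. *VIN3*, which accumulates in prolonged cold, was at 0, 0 and 1.05 in 0v and at 36.5, 76.2 and 122 in 4v, and *COR15A*, a cold-regulated chloroplast protein gene, had 12.9 to 27.3 in 0v and 9245 to 14077 in 4v. Markers of both shoot and root were present in all 6 libraries, although 3 of 8 root markers, the root hair genes *COBL9*, *EXPA7* and *RHD6*, were too low to test. In such bulk RNA, fewer cells of a type and less RNA per cell cannot be told apart.

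The members include 3 pairs that are related copies, and how far reads can separate them depends on their sequences. The most similar 75-base window of each pair, the length of 1 sequenced read, is shown for this reason, from the coding sequences of RefSeq (TAIR10.1), 5′ to 3′, with bases that differ between the copies in capitals. *MYB28* and *MYB29* lie far apart on chromosome 5, are 77.8% identical over 985 aligned coding bases and differ at 6 positions of the window, which falls in the conserved part of both genes.
MYB28: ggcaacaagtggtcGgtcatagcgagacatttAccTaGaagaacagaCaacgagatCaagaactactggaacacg
MYB29: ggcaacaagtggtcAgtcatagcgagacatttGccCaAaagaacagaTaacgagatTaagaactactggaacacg
*MAM1* and *MAM3* are neighbors on the same strand of chromosome 5, separated by 11144 bases, are 83.8% identical over 1512 bases and differ at 3 positions of their window.
MAM1: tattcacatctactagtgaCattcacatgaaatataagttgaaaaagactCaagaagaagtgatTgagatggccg
MAM3: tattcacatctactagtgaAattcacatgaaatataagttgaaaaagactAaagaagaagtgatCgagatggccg
*CYP79F1* and *CYP79F2* are neighbors on chromosome 1, separated by 1183 bases and 91.9% identical over 1605 bases, and their window is the same in both.
CYP79F1: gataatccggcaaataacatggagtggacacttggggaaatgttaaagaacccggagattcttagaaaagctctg
CYP79F2: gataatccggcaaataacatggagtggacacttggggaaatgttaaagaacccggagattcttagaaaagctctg
No stretch of 31 coding bases was shared by *MYB28* and *MYB29* or by *MAM1* and *MAM3*. Between the *CYP79F* genes 9.58% of the 31-base stretches and 1.69% of the 75-base stretches of *CYP79F1* also occurred in *CYP79F2*, so that a small share of their reads can be divided between them only by estimate.

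Of the 9 genes, *MYB28* and *MAM3* rose in 4v seedlings, 0 fell and 7 did not pass (limma on log2(normalized count + 4), Benjamini-Hochberg adjusted *p* under 0.05 over 16771 genes). Among all genes tested 6.46% were higher and 6.99% were lower. At an unadjusted *p* under 0.05 with a change of at least 1.5-fold, 4 of the 9 were higher, *MYB28*, *MAM3*, *CYP79F2* and *FMO GS-OX1*, and 0 were lower, where 13.6% and 12.4% of all genes were. In 5 of the 9, every 4v library lay above every 0v library, as in 20.5% of all genes. The fitted log2 fold change was above 0 in all 9, as in 8846 of the 16771 genes tested, with a median of 1.44 against 0.05 over all genes tested. Most members moved together over the 6 libraries (median pairwise correlation 0.88), so these 9 signs are not 9 separate observations. The correlations ran from 0.30, for *MAM1* with *MAM3*, to 0.997. Without 0v replicate 3 their median was 0.75, with a range of -0.17 to 0.99. In edgeR and in DESeq2 on recovered reads *MAM3* and *MYB28* were again the members called higher, where 5.64% and 6.77% of all genes were, and 0 were lower, where 7.17% and 8.55% were. In limma-voom 5 members were higher, adding *CYP79F2*, *FMO GS-OX1* and *MYB29*, where 14.9% of all genes were.

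**Figure D1:**
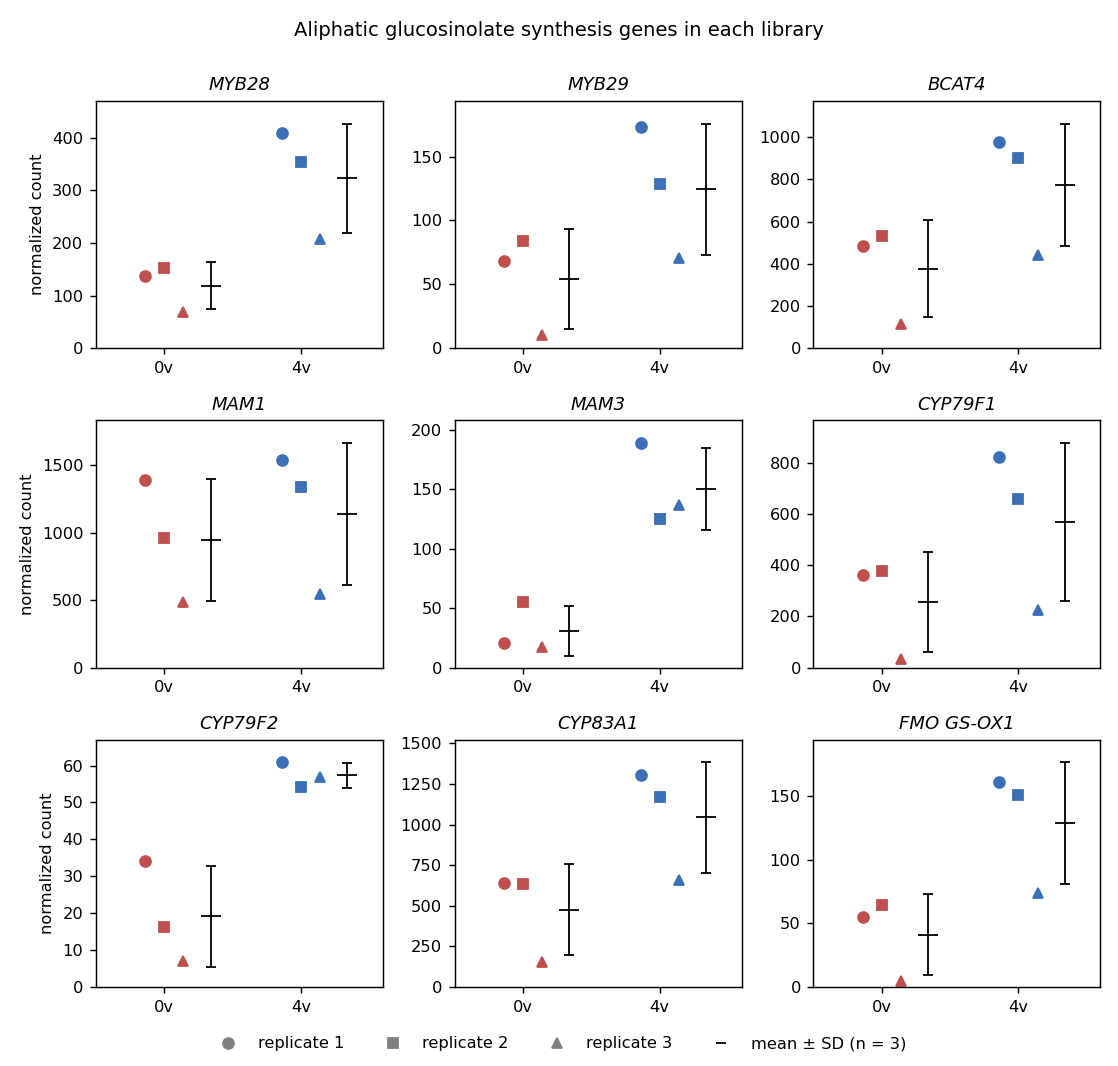
Normalized counts (linear axis from 0) of the 9 genes in each of the 3 non-vernalized (0v, red) and 3 vernalized (4v, blue) libraries, with the mean ± SD (n = 3) beside them. Replicate 3 (triangle) is the lowest 0v library in all 9 panels, and the groups do not overlap in *MYB28*, *MAM3*, *CYP79F2*, *CYP83A1* and *FMO GS-OX1*.

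*MYB28* (AT5G61420, chromosome 5, 24689069 to 24691187), the leading activator of the branch, had 137, 152 and 67.9 normalized counts in 0v replicates 1, 2 and 3, and 408, 353 and 207 in 4v replicates 1, 2 and 3. The lowest 4v library was above the highest 0v library. The mean rose from 118.7 ± 44.6 to 322.9 ± 104 (SD, n = 3), which is 2.72-fold (log2 fold change 1.44, SE 0.37, limma adjusted *p* = 0.0444). This call was near the threshold. With single libraries left out the call did not hold for 0v replicate 1 (adjusted *p* = 0.0813) and 0v replicate 2 (0.0595), nor for 4v replicate 1 (0.141), 4v replicate 2 (0.13) and 4v replicate 3 (0.0527). It was kept without 0v replicate 3 (0.0479), with log2 fold changes of 1.09 to 1.72 over these 6 fits.

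*MYB29* (AT5G07690, chromosome 5, 2446669 to 2448584), a partly overlapping activator that also answers to jasmonate, had 68.3, 83.9 and 9.999 in 0v, and 174, 129 and 71.0 in 4v. The groups overlapped, since 4v replicate 3 lay below 0v replicate 2. The means were 54.1 ± 38.9 and 124.5 ± 51.4, and the difference did not pass (log2 fold change 1.44, SE 0.71, limma adjusted *p* = 0.21). The estimate was as large as that of *MYB28*, with a larger SE. The count-based limma-voom gave 3.09 with an adjusted *p* of 0.01, where 0v replicate 3 rests on 38 of its 20005225 counted reads.

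Within a library, the log2 ratio of *MYB28* to *MYB29* was 0.96, 0.82 and 2.36 in 0v and 1.21, 1.43 and 1.49 in 4v. The mean ratio was the same in both groups to 2 decimals, at 1.38 (difference -0.003, two-sided exact permutation *p* = 1, where 3 against 3 libraries cannot give less than 0.1). The difference is held near 0 by 0v replicate 3, in which *MYB29* was reduced more than *MYB28*. Without that library it was 0.49 (exact *p* = 0.1, the smallest that 2 against 3 allow), *MYB28* being the higher relative to *MYB29* in every 4v library.

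The chain elongation enzymes differed among themselves. *BCAT4* (AT3G19710, chromosome 3, 6846969 to 6849582) encodes the aminotransferase that takes the amino group from methionine at the entry of the cycle. It had 485, 532 and 115 in 0v, and 978, 903 and 440 in 4v. The means of 377.3 ± 228 and 773.4 ± 291 gave a log2 fold change of 1.22 that did not pass (SE 0.60, limma adjusted *p* = 0.21). The 4v replicate 3 value lay inside the 0v range. *BCAT4* overlaps a gene on the opposite strand, AT3G19700, which was not analysed here, and none of the sources used here states whether strand was used in counting.

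*MAM1* (AT5G23010, chromosome 5, 7703041 to 7706973) encodes the methylthioalkylmalate synthase of the first condensation rounds, which lead to short-chain glucosinolates. Its mean was the highest of the 9 genes in both groups, with 1389, 958 and 483 normalized counts in 0v, and 1538, 1338 and 542 in 4v. The groups overlapped nearly throughout, and replicate 3 was lowest in both. The means were 943.4 ± 453 and 1139 ± 527 (log2 fold change 0.26, SE 0.50, limma adjusted *p* = 0.751), and the sign turned without 0v replicate 3 (-0.15), without 4v replicate 1 (-0.02) and in the 4 shallow libraries alone (-0.34). *MAM1* was thus the member with the smallest estimated change.

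*MAM3* (AT5G23020, chromosome 5, 7718118 to 7721866; named *IMS2* in RefSeq) encodes the related synthase that also carries out the later rounds and so is needed for long-chain glucosinolates. It had 20.5, 54.8 and 17.1 in 0v, and 189, 124 and 136 in 4v. The groups were well apart, the lowest 4v library being above the highest 0v library. The mean rose from 30.8 ± 20.9 to 149.8 ± 34.3, or 4.86-fold (log2 fold change 2.28, SE 0.42, limma adjusted *p* = 0.0168), the largest estimate of the 9. In 0v it rested on 6, 17 and 65 reads. The adjusted *p* was 0.0534 without 0v replicate 1, 0.0708 without 4v replicate 1 and 0.057 without 4v replicate 3, with log2 fold changes of 2.00 to 2.74 when single libraries were left out.

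The neighbors *MAM1* and *MAM3* were also set against each other within each library. Their log2 ratio within a library was 5.83, 4.03 and 4.53 in 0v and 2.999, 3.39 and 1.96 in 4v, without overlap. It dropped by 2.01 (from 4.80 to 2.78, two-sided exact permutation *p* = 0.1, the smallest possible, and 0.3 after adjustment over the 3 pairs), so that the test could not pass. The direction was kept in each alternative run, with values from -2.45 with the 4 shallow libraries alone to -1.50 without 0v replicate 1. The 2 copies share no 31-base stretch of coding sequence, and their most alike window differs at 3 bases. Untranslated parts were not compared, and how reads were divided between the copies was not tested.

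Of the core structure genes, the cytochrome P450 genes *CYP79F1* and *CYP79F2* encode the enzymes that turn elongated methionine into aldoximes. *CYP79F1* accepts short and long chains in Arabidopsis, and *CYP79F2* is known for long chains. *CYP79F1* (AT1G16410, chromosome 1, 5608682 to 5612064) had 362, 377 and 32.4 in 0v, and 825, 660 and 227 in 4v. Replicate 3 stood far below the other 2 in each group, and 4v replicate 3 lay inside the 0v range. The means were 257.2 ± 195 and 571.0 ± 309, with the largest SE of the 9 (log2 fold change 1.55, SE 0.95, limma adjusted *p* = 0.302).

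*CYP79F2* (AT1G16400, chromosome 1, 5605044 to 5607498) had 34.1, 16.1 and 7.10 in 0v, and 60.9, 54.3 and 56.8 in 4v. The 4v libraries were close together and all above 0v, and replicate 3 was not low in 4v. The means of 19.1 ± 13.8 and 57.3 ± 3.33 differed 2.998-fold, and the change did not pass (log2 fold change 1.58, SE 0.47, limma adjusted *p* = 0.066). It passed without 0v replicate 1, at 2.03 (adjusted *p* = 0.0381). The shallow libraries held only 5 to 20 reads of this gene.

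The log2 ratio of *CYP79F1* to *CYP79F2* was 3.26, 4.24 and 1.71 in 0v and 3.68, 3.51 and 1.93 in 4v, and was lowest in replicate 3 of each group. Its mean was 3.07 and 3.04 (difference -0.03, two-sided exact permutation *p* = 1). The values without 1 library ran from -0.72 to 0.55, so that no direction can be given. A read within the identical window above fits either gene, unless the other read of its pair differs between them.

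*CYP83A1* (AT4G13770, chromosome 4, 7990429 to 7992429), whose enzyme oxidizes the aldoximes, had 642, 636 and 151 in 0v, and 1303, 1168 and 659 in 4v. The groups did not overlap, but only just, with 4v replicate 3 at the level of 0v replicates 1 and 2. The means were 475.9 ± 282 and 1043 ± 340 (2.19-fold, log2 fold change 1.33, SE 0.57, limma adjusted *p* = 0.158), and the change did not pass.

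The side-chain gene *FMO GS-OX1* (AT1G65860, chromosome 1, 24498954 to 24502776) encodes a flavin monooxygenase that oxygenates the sulfur of the side chain. It had 54.6, 64.5 and 4.47 in 0v, and 161, 151 and 73.8 in 4v. All 4v libraries were above all 0v libraries, and 0v replicate 3, with 17 reads, was the lowest relative to its group of any member. The means were 41.2 ± 32.2 and 128.7 ± 47.8 (3.12-fold, log2 fold change 1.96, SE 0.79, limma adjusted *p* = 0.142). The change did not pass, except in limma-voom (4.38, adjusted *p* = 0.00488).

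Per kilobase of exon, the order of levels in 0v was *MAM1* (460.0 ± 221 normalized counts per kb), *BCAT4* (260.1 ± 157), *CYP83A1* (249.3 ± 148), *CYP79F1* (78.6 ± 59.6), *MYB28* (60.0 ± 22.6), *MYB29* (31.2 ± 22.5), *FMO GS-OX1* (23.8 ± 18.6), *MAM3* (16.8 ± 11.4) and *CYP79F2* (9.48 ± 6.82). In none of the 8 neighboring pairs of this order did the mean ± SD ranges stand apart. These ranges are spreads across libraries, in which most members moved together. They describe the groups and do not test the order of genes within a library. In 4v, *MAM1* (555.5 ± 257), *CYP83A1* (546.6 ± 178) and *BCAT4* (533.0 ± 201) were level, followed by *CYP79F1* (174.5 ± 94.4) and *MYB28* (163.1 ± 52.4), then by *MAM3* (81.9 ± 18.7), *FMO GS-OX1* (74.2 ± 27.6) and *MYB29* (71.9 ± 29.7), and last by *CYP79F2* (28.4 ± 1.65). Here the ranges stood apart at 3 steps, those from *BCAT4* to *CYP79F1*, from *MYB28* to *MAM3* and from *MYB29* to *CYP79F2*. By these means *MAM3* moved from eighth place to sixth, a move that single libraries did not all share. In 0v replicate 3 *MAM3* (17.1 normalized counts) was already above *MYB29* (9.999) and *FMO GS-OX1* (4.47). In 4v replicate 2 it (124) was below both (129 and 151). The exon length of *CYP79F1* is the union of its annotated transcripts, 3272 bases, and is longer than that of *CYP79F2* (2018 bases), which lowers its level on this scale.

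A single control library set much of the spread. The summed normalized count of the 9 genes was 3192, 2875 and 887 in 0v replicates 1, 2 and 3, and 5637, 4881 and 2413 in 4v replicates 1, 2 and 3. Thus 0v replicate 3 was well below its group, and 4v replicate 3 lay below 0v replicates 1 and 2 in this sum. In all 9 genes 0v replicate 3 was the lowest 0v library, as it was in 33.3% of all genes tested. It held 0.0751 (*FMO GS-OX1*) to 0.471 (*MYB28*) of the mean of 0v replicates 1 and 2, with a median of 0.236, where the median of all genes was 1.01 and 8.65% of genes were under 0.5. In 4v, replicate 1 was the highest library for all 9 genes (35.6% of all genes) and replicate 3 the lowest for 7 of 9 (34.1% of all genes), at a median of 0.473 of the other 2 (0.987 for all genes). *MAM3* and *CYP79F2* were the exceptions, at 0.870 and 0.986.

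**Figure D2:**
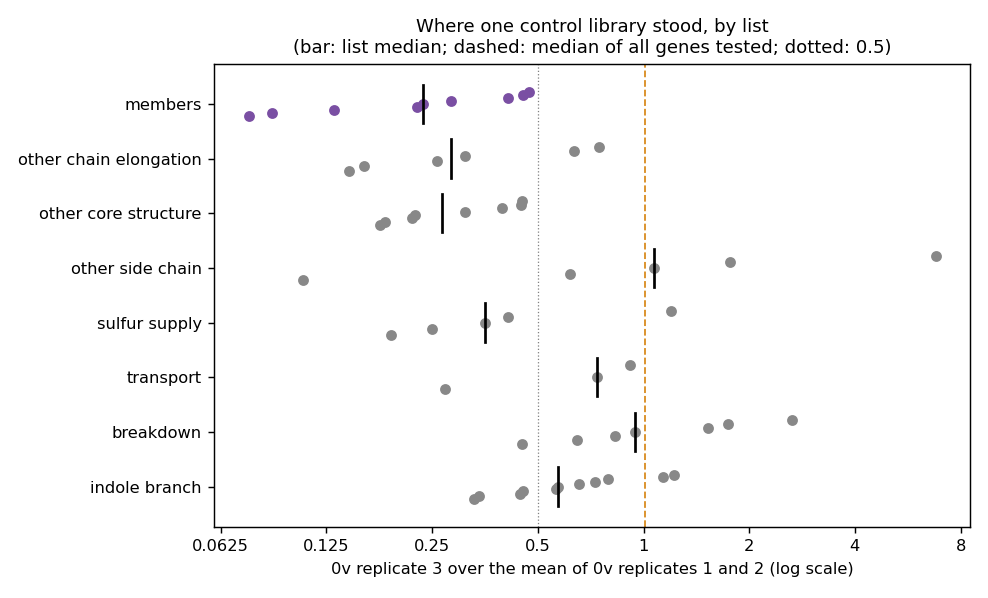
Level in 0v replicate 3 divided by the mean of 0v replicates 1 and 2 (log axis), 1 point per gene, for the 9 genes and for other glucosinolate genes by list. All 9 members lie below 0.5, between 0.0751 and 0.471, and the dashed line marks the median of all genes tested, 1.01.

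With 0v replicate 3 left out, *MYB28* and *MAM3* still rose (9.06% of all genes were then higher), with log2 fold changes of 1.09 and 2.00. The fitted log2 fold changes of all 9 genes were lower than with 6 libraries, which must follow from leaving out the lowest 0v value of each. The ratio of the 4v mean to the mean of 0v replicates 1 and 2 was 2.24 for *MYB28*, 1.64 for *MYB29*, 1.52 for *BCAT4*, 0.971 for *MAM1* and 3.98 for *MAM3*. It was 1.54 for *CYP79F1*, 2.28 for *CYP79F2*, 1.63 for *CYP83A1* and 2.16 for *FMO GS-OX1*. Over the 9 genes the log2 fold changes then had a median of 0.65 against 0.05 over all genes, and 8 of the 9 were above 0. Since 0v replicate 3 was also 1 of the 2 deep libraries, the deep pair was set side by side without a test. The log2 difference of 4v replicate 2 over 0v replicate 3 was 1.46 for *MAM1*, 2.31 for *MYB28*, 2.39 for *CYP79F2* and 2.61 for *MAM3*. It was 2.92 for *CYP83A1*, 2.93 for *BCAT4*, 3.25 for *MYB29*, and 4.19 for both *CYP79F1* and *FMO GS-OX1*. With the lowest 0v library of all 9 genes as its only control, this pair gives raised values and cannot show the part of depth. In the 4 shallow libraries alone *MAM3* was the member that passed (adjusted *p* = 0.0498) and *MYB28* did not (0.122), with 4.59% of all genes higher. The part of depth in these differences was not tested beyond these fits.

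**Figure D3:**
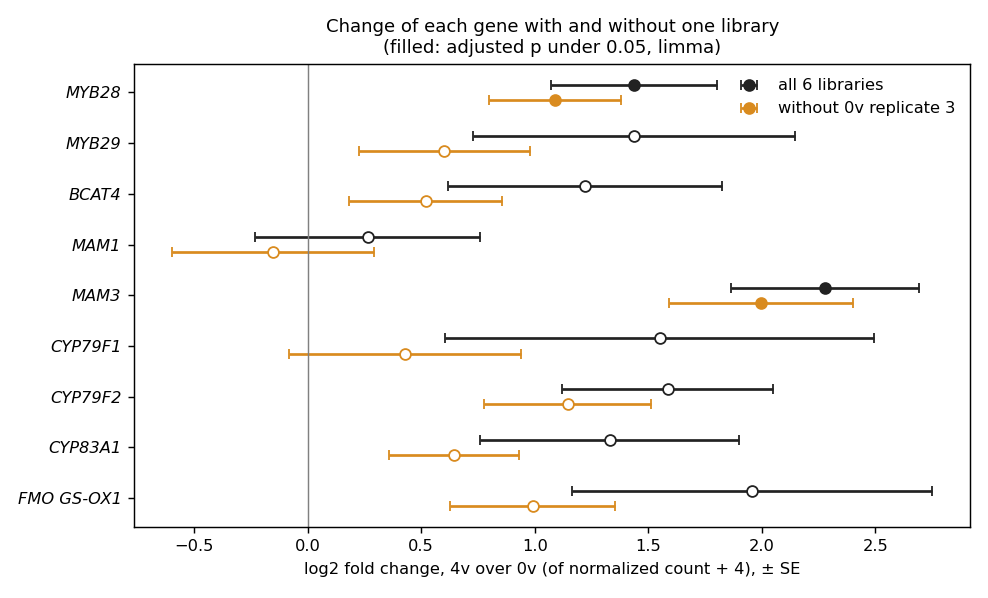
Fitted log2 fold change of 4v over 0v with its SE (of normalized count + 4) for each gene, with all 6 libraries (black) and without 0v replicate 3 (orange), filled where the limma adjusted *p* was under 0.05. *MYB28* and *MAM3* are filled in both fits, and *MAM1* moves from 0.26 to -0.15.

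Beyond the members, 54 other glucosinolate genes were listed by role, 12 of them of the indole branch, and 49 of the 54 could be tested. There 4 were higher (*FMO GS-OX4*, *GSL-OH*, *GTR2* and *GSTF9*), 2 were lower (*NSP1* and *IGMT1*) and 43 did not pass, and their median log2 fold change was 0.21. These counts stand beside the background of 6.46% and 6.99% of all genes. Of 6 other chain elongation genes 0 passed in limma, with a median log2 fold change of 0.33, and 1 (*BASS5*) was under an unadjusted *p* of 0.05 and was called by edgeR and DESeq2. Of 8 other core structure genes 0 passed in limma, edgeR or DESeq2 and 0 were under an unadjusted *p* of 0.05, with a median of 0.45. The same was true of the 4 other regulators tested, the largest estimate being that of *MYC2* (1.88, SE 1.69, limma adjusted *p* = 0.482). In the chain elongation and core structure lists 0v replicate 3 was the lowest 0v value in 6 of 6 and 8 of 8 genes. It stood at medians of 0.284 and 0.267 of the other 2 libraries, and at up to 0.745 in the first list and 0.451 in the second. The sulfur supply list had a median of 0.353, and the remaining lists had medians from 0.569 (indole branch) to 1.07 (other side chain). In 4v replicate 3 the medians were 0.575 in other chain elongation, 0.599 in other core structure and 0.585 in sulfur supply. They were 0.586 in other regulators and 0.525 in breakdown, and 0.831 to 0.943 in the indole branch, transport and other side chain.

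The largest estimate among the other chain elongation genes was that of *BASS5*, a plastid carrier for intermediates of the cycle. It had 10.2, 16.1 and 2.11 in 0v, and 171, 119 and 22.7 in 4v, without overlap. Its log2 fold change was 2.79 (SE 0.78, limma adjusted *p* = 0.0577), and 4v replicate 3 was far below the others here too. In the core structure list the largest was that of *GSTF11*, a glutathione transferase gene of the aliphatic branch (27.9 ± 20.5 and 61.6 ± 20.5, log2 fold change 1.27, SE 0.59, adjusted *p* = 0.186).

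Later side-chain genes gave the smallest adjusted *p* values of the listed genes. *FMO GS-OX4*, another sulfur-oxygenating monooxygenase gene, had 95.6, 155 and 221 in 0v, and 1504, 2079 and 1584 in 4v. It was 10.96-fold higher in 4v (157.2 ± 62.9 and 1723 ± 311, log2 fold change 3.48, SE 0.30, limma adjusted *p* = 0.00197) and passed in all 18 alternatives. *GSL-OH*, whose dioxygenase hydroxylates alkenyl glucosinolates, had 2799, 2710 and 2953 in 0v, and 6980, 7118 and 6644 in 4v (log2 fold change 1.29, SE 0.14, adjusted *p* = 0.00443), and also passed in all 18. In neither gene was 0v replicate 3 low, the values there being the highest of the 3. *FMO GS-OX4* has closely related copies, between which reads may be divided. Of the 5 tested genes of this list, 2 rose and 3 did not pass.

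Among 3 transporter genes, *GTR2*, a plasma membrane importer that loads glucosinolates into the phloem, rose from 91.4 ± 19.4 to 242.3 ± 62.5 (log2 fold change 1.36, SE 0.24, adjusted *p* = 0.0155). The limma call held in 15 of 18 alternatives and was lost without 4v replicate 1 (0.0566) or 4v replicate 3 (0.0505). Of 7 breakdown genes, the nitrile specifier gene *NSP1* fell, from 4011, 3568 and 2449 to 1611, 1555 and 1556 (log2 fold change -1.05, SE 0.20, limma adjusted *p* = 0.0194). It was kept without 0v replicate 3 and lost without any of the other 5 libraries in turn (up to 0.0744). The myrosinase genes *TGG1* and *TGG2* did not pass. Of 5 sulfur supply genes 0 passed in limma, edgeR or DESeq2 and 0 were under an unadjusted *p* of 0.05 (median 0.05), the largest estimate being that of the ATP sulfurylase gene *APS3* (-0.44, SE 0.55, adjusted *p* = 0.612).

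**Figure D4:**
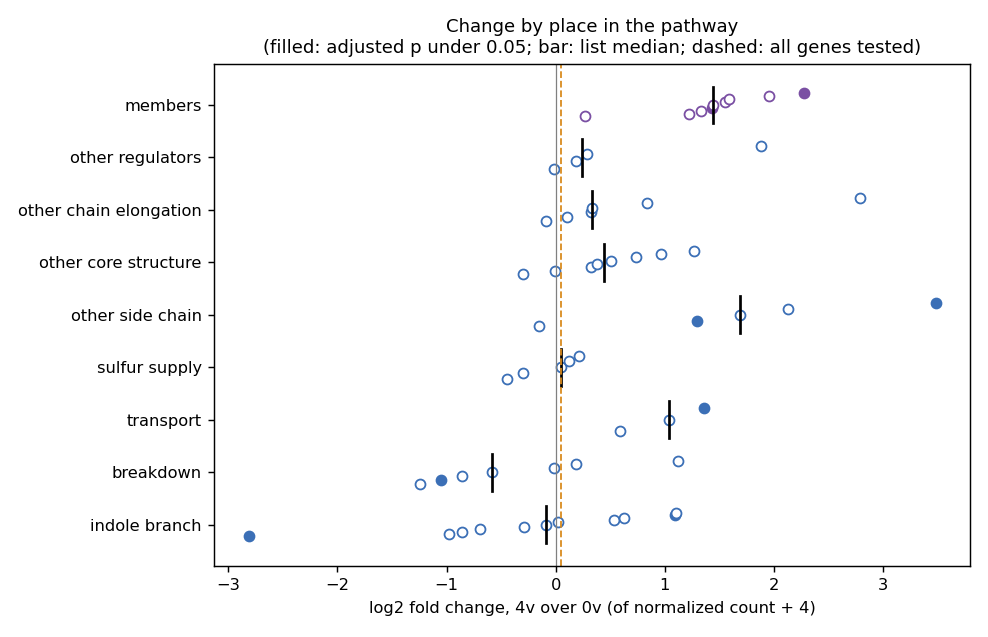
Log2 fold change of 4v over 0v (of normalized count + 4) for each gene tested, by place in the pathway, filled where the limma adjusted *p* was under 0.05, with a bar at the median of each list. The members have a median of 1.44, the indole branch one of -0.09, and the dashed line marks that of all genes tested, 0.05.

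The indole branch, which makes the tryptophan-derived glucosinolates with its own MYB regulators, was compared as the most closely related pathway. Of its 12 listed genes 11 could be tested, of which 1 was higher, 1 was lower and 9 did not pass, with a median log2 fold change of -0.09. *IGMT1*, a methyltransferase gene of the last steps, fell from 761, 368 and 691 to 91.4, 53.9 and 99.4 (log2 fold change -2.81, SE 0.34, limma adjusted *p* = 0.00527) and passed in all 18 alternatives, although near-identical copies may share its reads. *GSTF9*, a glutathione transferase gene, rose from 2419 ± 550 to 5224 ± 1509 (1.09, SE 0.28, adjusted *p* = 0.0437), a call that held in 10 of 18 alternatives. It was lost without the filter (0.0515), with depth class as a covariate (0.0518) and in the 4 shallow libraries alone (0.101, log2 fold change 0.69), and without each single library but 4v replicate 3 (up to 0.135). In 0v replicate 3 the indole genes were at a median of 0.569 of the other 2, against 0.236 for the aliphatic members. This difference between the branches was not tested.

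Tissue markers moved as well. The summed level of 8 root markers was 13829 to 20041 in 0v and 5344 to 8271 in 4v. Most of this was *PYK10*, a root and seedling beta-glucosidase gene (log2 fold change -1.39, limma adjusted *p* = 0.0202), which lost the call without any single library except 0v replicate 3 (up to 0.0707), and of the 5 root markers tested 1 was lower. *CASP1* and *MYB36* had estimates of the same sign (-1.28 and -0.31, limma adjusted *p* = 0.0616 and 0.696), with every 4v library below every 0v library for *CASP1*. *SCR* and *SHR*, regulator genes of the root ground tissue, had estimates of the other sign (0.41 and 0.30, limma adjusted *p* = 0.161 and 0.461). For *SCR* every 4v library was above every 0v library. The sum of 3 phloem markers was 120 to 236 in 0v and 275 to 423 in 4v. Of these, *SUC2*, the sucrose carrier gene of companion cells, made up most of the 4v sum and was higher (1.31, limma adjusted *p* = 0.0319). *APL* had an estimate of the same sign (1.39, limma adjusted *p* = 0.0922), with every 4v library above every 0v library. *SEOR1*, a sieve element gene, had an estimate of the other sign (-0.79, limma adjusted *p* = 0.241). When single libraries were left out, *SUC2* kept the call only without 0v replicate 2 or 0v replicate 3 (up to 0.106 otherwise). The sum of 4 shoot markers overlapped between the groups (222470 to 372805 and 263395 to 515857), with 1 of 4 higher, the chloroplast regulator gene *GLK1* (1.01, adjusted *p* = 0.0214). Leaving out 0v replicate 2 ended its call, as did leaving out 4v replicate 2 and 4v replicate 3 (up to 0.0784) and fitting the 4 shallow libraries alone (0.077). The sum of 3 myrosin and guard cell markers overlapped too (4710 to 6227 and 4218 to 6182), with 0 of 3 called in limma, edgeR or DESeq2 and 0 under an unadjusted *p* of 0.05. Most of the shoot sum was *LHCB1.3* (259818 of 372805 in 0v replicate 1). Most of the myrosin and guard cell sum was *TGG1* (4263 of 4799 there), which is also among the breakdown genes. In 0v replicate 3 each of these 4 sums was the lowest of the 0v group, although that of myrosin and guard cells was nearly level with 0v replicate 1 (4710 and 4799). By gene, 0v replicate 3 was the lowest 0v library in 3 of 4 shoot, 4 of 5 tested root and 2 of 3 phloem markers. It was the lowest in 1 of 3 myrosin and guard cell markers, and in 33.3% of all genes tested. The part of tissue composition in the change of the members was not tested.

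The 250 bases before the annotated start were searched in 8 of the 9 genes on both strands for 3 short motifs: the G-box CACGTG, bound by MYC factors among others, the core CCGAC of cold-response elements bound by CBF factors, and the AC element ACCNANC of R2R3-MYB factors. Of the 8 promoters, 1 held the G-box, 1 the CCGAC core and 3 the AC element, and among 27443 nuclear protein-coding genes the shares were 6.49%, 12.0% and 27.8%. The promoter of *MYB28*, which rose, held none of the 3, and those of *MYB29* and *CYP83A1* held the CCGAC core and the G-box. These genes' promoters are shown from RefSeq (TAIR10.1) on the strand of the gene, 5′ to 3′, with the CCGAC core (here as its reverse complement) and the G-box in capitals.
MYB28, chr5:24691188-24691437, minus strand: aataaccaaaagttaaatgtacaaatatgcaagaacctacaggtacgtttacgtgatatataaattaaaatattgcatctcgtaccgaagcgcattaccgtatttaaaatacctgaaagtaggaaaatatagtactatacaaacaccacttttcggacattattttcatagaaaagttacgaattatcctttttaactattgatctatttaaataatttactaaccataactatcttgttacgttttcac
MYB29, chr5:2446419-2446668, plus strand: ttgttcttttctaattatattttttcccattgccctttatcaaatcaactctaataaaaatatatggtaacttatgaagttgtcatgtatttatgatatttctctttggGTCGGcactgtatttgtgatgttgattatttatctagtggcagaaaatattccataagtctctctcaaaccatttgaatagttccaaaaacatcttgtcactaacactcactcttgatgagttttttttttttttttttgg
CYP83A1, chr4:7992430-7992679, minus strand: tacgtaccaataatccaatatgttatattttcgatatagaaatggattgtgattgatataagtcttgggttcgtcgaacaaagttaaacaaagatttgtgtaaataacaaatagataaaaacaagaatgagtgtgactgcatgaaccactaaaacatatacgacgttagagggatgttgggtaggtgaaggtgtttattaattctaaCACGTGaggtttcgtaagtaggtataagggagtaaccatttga
The CCGAC core lies 141 bases before the start of *MYB29* and the G-box 43 bases before that of *CYP83A1*. These matches describe the sequence and are not evidence of binding.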

How the data were processed

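Polyadenylated RNA of 6 seedling samples was sequenced as paired reads of 75 bases (Illumina TruSeq mRNA kit), quantified with Kallisto against TAIR10 and normalized in DESeq2 by the authors. The deposited signal is a count divided by 1 size factor per library. Whole reads were recovered for all 110208 values (100%, tolerance 0.05 of a read plus 1e-05 per read). Of 18369 rows, 1 with displaced values was left out, as were 20 columns of values that carry no sample name and the columns of the authors' own comparison (fold changes and *p*-values).

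Groups were compared with limma 3.58.1 (R 4.3.3, eBayes trend), two-sided, on log2(normalized count + 4), a scale that understates changes of low genes. Genes entered the test at a mean of 10 or more, with Benjamini-Hochberg adjustment over 16771 genes and a threshold of 0.05. A total of 1083 genes were higher and 1172 lower. Log2 ratios of related copies used exact permutation tests. The script was tested on simulated data. Alternatives were pseudocounts of 1 and 16, no filter or a mean of 50, quantile normalization, edgeR 4.0.16 (quasi-likelihood, TMM), DESeq2 1.42.0 and limma-voom on the recovered reads, thinned reads, the 4 shallow libraries alone, depth class as a covariate, a replicate block and leaving out each library. The recovered-read count tests called 946 genes higher and 1202 lower in edgeR, and 1105 and 1395 in DESeq2.

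All members are named, and from each other list the genes that passed or, where none did, the largest log2 fold change. *VIN3*, *COR15A*, *TGG1* and *TGG2* are given as checks, with 3 root hair genes, *LHCB1.3*, *CASP1*, *MYB36*, *SCR*, *SHR*, *APL* and *SEOR1*. Members and lists were chosen with earlier results of these data known. Gene models came from RefSeq TAIR10.1, where 18305 of 18306 matched nuclear genes had the coordinates of the deposited table. Listed genes without a row are not analysed here. The promoter of 1 member is not reported here.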

Additional observations from a re-analysis of the deposited data

How the results depend on the processing

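The count of all genes higher and lower in 4v (1083 and 1172) was 2498 and 2318 with limma-voom and 481 and 567 with the replicate block, and ran from 260 to 1521 and from 400 to 1440 when single libraries were left out. Members higher (2) numbered 1 without the filter (5.71% of all genes), with thinned reads (5.17%) and with the shallow libraries alone (4.59%). They numbered 5 with limma-voom (14.9%) and 0 to 2 without single libraries (1.55% to 9.06%). The count of members lower was 0 in every alternative, where 2.39% to 13.8% of all genes were lower. *MYB28* lost its call without the filter (adjusted *p* = 0.0515), with thinned reads (0.0659), with the shallow libraries alone (0.122) and without 5 of the 6 libraries in turn. *MAM3* lost its call without 3 libraries and in no other alternative. Other pathway genes higher (4) numbered 11 with limma-voom (14.9% of all genes) and 2 to 5 without single libraries (1.55% to 9.06%). Those lower (2) numbered 6 with the shallow libraries alone (5.2%) and 4 with depth as a covariate (7.44%). Without single libraries they numbered 1 to 6 (2.39% to 8.58%).

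The log2 fold change of *MAM1* was -0.15 to 0.73 without single libraries (-0.15 without 0v replicate 3, -0.02 without 4v replicate 1) and -0.34 with the shallow libraries alone. The ratio of *MYB28* to *MYB29* changed by 0.19 with a pseudocount of 16 and by 0.46 in the shallow libraries, and by -0.28 to 0.49 without single libraries (0.49 without 0v replicate 3 and 0.08 without 4v replicate 1). That of *CYP79F1* to *CYP79F2* changed by 0.29 with a pseudocount of 16, by -0.95 in the shallow libraries and by -0.72 to 0.55 without single libraries (0.06 without 0v replicate 1, 0.55 without 0v replicate 2, 0.52 without 4v replicate 3). The cause was not tested.

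Over all genes tested, same-numbered libraries did not deviate together (correlations of 0.07, -0.13 and -0.13), so the numbers are not taken as pairs. There 0v replicate 3 correlated most with 4v replicate 2, at 0.27. The members differed from this, replicate 3 being the lowest library for 9 of 9 in 0v and 7 of 9 in 4v. With the replicate block the SE of *CYP79F1* went from 0.95 to 0.38 and that of *MAM1* from 0.50 to 0.16. The SE of *MAM3* did not fall (0.42 and 0.43). With the replicate block both *MYB28* (adjusted *p* = 0.0221) and *MAM3* (0.0453) passed, and *GTR2* (0.0544), *PYK10* (0.0664), *SUC2* (0.085) and *GLK1* (0.0699) did not. Low genes in the 4 shallow libraries rest on few reads, down to 5 for *CYP79F2* and 6 for *MAM3*.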

Other observations

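*MYC2*, the jasmonate-pathway bHLH factor gene that acts with the MYB activators, had uneven values. It had 270, 83.9 and 0 normalized counts in 0v, and 813, 30.0 and 168 in 4v, which are 79, 26 and 0 reads and 267, 148 and 59 reads. The 2 deep libraries were the lowest of their groups, with 0 of 20005225 counted reads in 0v replicate 3. Its relatives *MYC3* and *MYC4* had 401 and 62.6 in 0v replicate 3, the highest and the lowest 0v value of the gene, and did not pass (limma adjusted *p* = 0.966 and 0.556).

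*ESP*, the epithiospecifier gene that steers glucosinolate breakdown toward nitriles, was near the limit of counting, with 23.9, 19.4 and 9.74 normalized counts in 0v and 9.14, 8.92 and 0 in 4v. All 4v values were below all 0v values, and the change did not pass (log2 fold change -1.24, SE 0.66, limma adjusted *p* = 0.242). *ESP*, *MYC3* and *MYC4* were chosen after their values were seen.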
